A study of Homo sapiens and Mus musculus with 33 samples.

Results

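Crotonyl-CoA and related acyl-CoA donors are made and consumed by a small set of enzymes, and 9 of them are described here across every library of the series: ACSS2, ACLY, ACADS, ACOX3, ECHS1, GCDH, HADH, CDYL and CDYL2. They were taken by name from the gene tables, where each has 1 row of 35805 in HCT116 cells and 1 row of 25965 in mouse colon, and from the peak tables, where every peak in a gene or within 2 kb of it was kept. This gave 16 of 40266 peaks in HCT116 cells, 15 of 30338 H3K18cr peaks in colon and 16 of 27035 H3K4me3 peaks in colon. HCT116 is a human colon carcinoma line, and its cells received 5 µM MS275, an inhibitor of class I histone deacetylases, or the vehicle DMSO for 18 h. They were assayed by RNA-seq (4 libraries per treatment) and by ChIP-seq of histone H3 crotonylated (H3K18cr) or acetylated (H3K18ac) at lysine 18 (3 libraries per mark and treatment, with 1 input per treatment). Colon epithelium of untreated male C57BL/6 mice, whose age is not given in the sources used here, was assayed by RNA-seq (3 libraries), H3K18cr ChIP-seq (2 libraries and 2 inputs) and ChIP-seq of H3K4me3, a promoter mark (3 libraries and 1 input), and colons were pooled for ChIP. All HCT116 libraries come from 1 line with no gene altered, so treatment was the intended difference between them.

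Crotonylation of histones draws its acyl group from crotonyl-CoA, as acetylation draws on acetyl-CoA. ACSS2 activates free short-chain acids to their CoA forms, and ACLY releases acetyl-CoA from citrate in the cytosol and nucleus. ACADS, the short-chain acyl-CoA dehydrogenase of mitochondria, forms crotonyl-CoA from butyryl-CoA, GCDH forms it from glutaryl-CoA in lysine breakdown, and ACOX3 is a peroxisomal acyl-CoA oxidase. ECHS1 adds water to crotonyl-CoA and HADH oxidizes the product, while CDYL is a chromodomain corepressor that hydrates crotonyl-CoA at chromatin and CDYL2 is its paralog. Colon epithelium is known for burning butyrate, a bacterial product that is broken down through ACADS, ECHS1 and HADH.

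The RNA libraries held 35608533 to 53415604 counts in HCT116 cells and 8166406 to 10707901 in colon, and the ChIP libraries held 2236551 to 5730094 reads in peaks in HCT116 cells and 1105419 to 3451663 in colon. Epithelial markers summed to 2829 to 4340 CPM (counts scaled to a common library total) in HCT116 cells and 6512 to 7697 CPM in colon, with CDX1 at 0 counts in DMSO and in MS275. Immune markers summed to 5.24 to 11.7 CPM in HCT116 cells and 24.0 to 37.5 CPM in colon, where the stromal and endothelial markers summed to 13.1 to 15.1 CPM. In HCT116 cells the stromal and endothelial sum was 8.34 to 10.7 CPM in DMSO and 17.1 to 20.1 CPM in MS275, and the part of these sums in the results was not tested. Both HCT116 RNA libraries numbered 3 stood apart: their log2 CPM deviated from the group mean with an SD across genes of 0.89 (DMSO) and 0.70 (MS275), against 0.47 to 0.60 in the other 6 libraries. These deviations went down with log2 exon length (r = -0.21 and -0.33 across 12528 genes, which are not independent replicates), and those of the libraries numbered 4 went up with it (r = 0.23 and 0.29).

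In HCT116 cells 11 of the 16 member peaks lay at a start of transcription (TSS) of any gene and 5 lay away from one, and most promoter sequences under them were rich in CG dinucleotides. RefSeq (GRCh38.p14) lists 15 starts for 8 members, and CDYL2 is the remaining one. Of these 15 starts, 12 had a peak over all or part of the 200 bases upstream and 3 did not, namely start 2 of HADH and starts 1 and 3 of CDYL. The 3 windows without a peak held 0, 2 and 3 CG dinucleotides, and the 12 with a peak held 2 to 31, against a median of 9 over all 35116 listed promoters. The share of all listed promoters with a peak is not given here, so these counts describe the members only. The windows below are shown because they lie at the peaks described next, apart from the last, which is a start of CDYL without a peak. The peak of GCDH covers 128 bases of its window and leaves out the GC box there, and the windows of ECHS1, ACLY and CDYL at the marked start are covered in full. Each is written 5′ to 3′ in the direction of the gene and ends 1 base before the RefSeq start, with capitals marking GGGCGG (a GC box) on either strand.
ECHS1, chr10:133373355-133373554, minus strand: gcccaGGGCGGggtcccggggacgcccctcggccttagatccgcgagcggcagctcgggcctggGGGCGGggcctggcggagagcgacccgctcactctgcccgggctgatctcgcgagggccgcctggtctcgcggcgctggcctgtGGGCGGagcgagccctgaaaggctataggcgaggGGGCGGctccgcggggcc
ACLY, chr17:41919023-41919222, minus strand: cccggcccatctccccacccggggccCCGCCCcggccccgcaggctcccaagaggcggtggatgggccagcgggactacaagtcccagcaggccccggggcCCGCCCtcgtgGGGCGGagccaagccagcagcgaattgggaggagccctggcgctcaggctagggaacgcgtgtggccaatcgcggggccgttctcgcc
GCDH, chr19:12890929-12891128, plus strand: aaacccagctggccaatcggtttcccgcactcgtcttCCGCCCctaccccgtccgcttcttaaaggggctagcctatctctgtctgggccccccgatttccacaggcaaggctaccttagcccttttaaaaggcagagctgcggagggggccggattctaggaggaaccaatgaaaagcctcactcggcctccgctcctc
CDYL, chr6:4776204-4776403, plus strand: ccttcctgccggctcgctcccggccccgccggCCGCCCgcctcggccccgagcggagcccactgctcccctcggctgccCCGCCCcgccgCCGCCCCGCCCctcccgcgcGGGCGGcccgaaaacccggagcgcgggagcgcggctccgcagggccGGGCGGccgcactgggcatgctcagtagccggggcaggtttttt
CDYL without a peak, chr6:4705938-4706137, plus strand: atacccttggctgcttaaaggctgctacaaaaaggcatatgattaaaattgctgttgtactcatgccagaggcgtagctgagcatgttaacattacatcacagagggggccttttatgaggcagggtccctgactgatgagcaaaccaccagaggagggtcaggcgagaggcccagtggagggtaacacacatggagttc
ECHS1 had 4 GC boxes in this window, ACLY 3, GCDH 1 and CDYL 6 at the marked start, and the unmarked start of CDYL had none (0). At least 1 GC box was present in 40.1% of all promoter windows of this length. CCAAT was found at ACLY (2), GCDH (2), HADH and ACSS2 and in 28% of all windows, and CGGAAG at GCDH and in 14.6%. CACGTG, GCATGCGC and TCACNCCAC were not found in any of the 15 windows and occur in 5.5%, 2.4% and 0.7% of all. Both starts of ACOX3 carried TGACGTCA, the letters of a cyclic AMP response element, which 1.6% of windows hold. The 24 bases around each are shown with these letters in capitals.
ACOX3 first start, chr4:8440739-8440762, minus strand: cggcgcgtTGACGTCAtggaggcg
ACOX3 second start, chr4:8428504-8428527, minus strand: cggttcgaTGACGTCAgggcgccc
All motifs were searched on both strands, and a match is only a match of letters.

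ACLY and ECHS1 had the highest RNA levels per exon length in HCT116 cells, and CDYL2 was close to absent. In DMSO, ACLY was at 69.8 ± 18.9 CPM per kb of exon (SD, n = 4) and ECHS1 at 68.0 ± 7.85, and the libraries of the pair overlapped. CDYL followed at 10.3 ± 2.04, which was 6.58-fold below ECHS1 with no overlap of libraries. ACSS2 (7.09 ± 0.63), ACADS (6.59 ± 1.73), GCDH (5.03 ± 0.70), ACOX3 (3.72 ± 0.93) and HADH (2.89 ± 0.40) came next on the same scale, and each overlapped its neighbour in this order. Without division by length, ACLY (220 to 444 CPM) did not overlap ECHS1 (77.4 to 99.5 CPM), and HADH, whose annotated exons span 12881 bases, was at 37.2 CPM, as was ACSS2, above GCDH (20.1), ACADS (17.2) and ACOX3 (14.3). CDYL2 had 0, 0, 0 and 1 counts in the DMSO libraries and 0, 0, 3 and 9 in the MS275 libraries, where a count of 0 allows up to 0.0668 to 0.0826 CPM in the libraries at 0. ACLY and ECHS1 stood at the 96.5 and 96.1 percentile of 14365 protein-coding genes, HADH at 46.7 and CDYL2 at 0.8. In DMSO, ACADS changed places with GCDH and ACOX3 with HADH when the length of the longest transcript replaced that of all exons.

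In colon epithelium Acads, the enzyme that forms crotonyl-CoA from butyryl-CoA, had the highest level per kb of exon, followed by Acly and Hadh. Without division by length Acly led, at 676, 664 and 660 CPM in the 3 libraries, and Hadh (359, 298 and 331 CPM) overlapped Acads (330, 321 and 312 CPM). Echs1 was at 183, 158 and 168 CPM. Per length, Acads was at 141 ± 4.03 CPM per kb (SD, n = 3) and Acly at 126 ± 1.61, with no overlap, and Hadh at 66.2 ± 6.18. Acss2 (25.4 ± 0.49), Gcdh (23.3 ± 2.79) and Echs1 (20.5 ± 1.54) overlapped their neighbours, and Acox3 (4.49 ± 0.47), Cdyl (3.22 ± 0.56) and Cdyl2 (2.12 ± 0.21) were lowest and apart from each other. Acads stood at the 97.8 percentile of 12047 protein-coding genes in colon, while ACADS stood at 64.6 in HCT116 cells. Hadh was at 94.2 and HADH at 46.7, whereas Echs1 was at 78.7 and ECHS1 at 96.1. The order of this last pair rests on annotated exon length, which is 8286 bases for Echs1 and 1277 for ECHS1, and in CPM it turned round (170 ± 12.7 in colon and 86.9 ± 10.0 in DMSO). Cdyl was at 34.3 against 73.4 for CDYL. Species, cells and sequencing all differ between these tables, so their contributions cannot be told apart and no test was made. In bulk samples, fewer cells of a type and less RNA per cell cannot be told apart either.

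**Figure D1:**
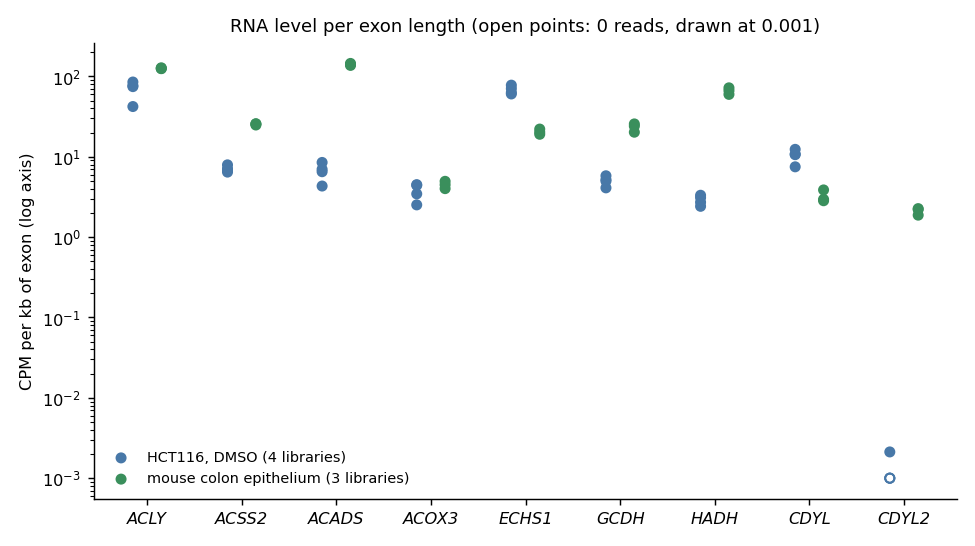
RNA level of each member, as CPM per kb of exon on a log axis, in the 4 DMSO libraries of HCT116 cells and the 3 libraries of mouse colon epithelium. The mean is higher in colon for 7 members, with ACADS, HADH and CDYL2 far apart, and higher in HCT116 cells for ECHS1 and CDYL, where the direction for ECHS1 turns round in CPM without division by length. Among the 7, the libraries of ACOX3 overlap, and its percentile among protein-coding genes is lower in colon (41) than in HCT116 cells (51.3). CDYL2 had 0 reads in 3 of 4 HCT116 libraries.

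MS275 was compared with DMSO to ask how inhibition of class I deacetylases changed the RNA of these enzymes. None of the 8 members tested passed an adjusted p of 0.05 in edgeR's quasi-likelihood test, 0 of 8 against 0.00668% (1 of 14961) of all genes tested, and CDYL2 had too few counts to be tested. By an unadjusted p under 0.05, 987 genes and 0 members passed. The median log2 change was -0.06 over the members and 0.01 over all genes. With the replicate number as a block, since same-numbered libraries deviated together, 14.4% of all genes passed and again 0 of 8 members.

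GCDH came closest to the threshold. Its level was 19.9, 20.9, 23.2 and 16.4 CPM in DMSO replicates 1 to 4 and 16.0, 13.1, 19.6 and 13.5 CPM in MS275. The groups overlapped, through DMSO replicate 4 and MS275 replicate 3, but GCDH was lower in MS275 in 4 of 4 same-numbered pairs, by -0.68 to -0.24 on the log2 scale. The log2 change was -0.38 ± 0.25 (SE; edgeR adjusted p = 0.88) and -0.39 ± 0.13 with the block (adjusted p = 0.070). Without both libraries numbered 3 it was -0.46 ± 0.19 (adjusted p = 0.36), and -0.46 ± 0.15 with the block as well (adjusted p = 0.051). Exons of GCDH overlap those of SYCE2 on the opposite strand over 8.8% of their length, and whether counting used strand is not stated.

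ACLY and ACSS2, which supply acetyl-CoA and short-chain acyl-CoA, were slightly higher in MS275 in 4 of 4 pairs by CPM. ACLY was at 444, 389, 220 and 401 CPM in DMSO and 506, 413, 229 and 437 CPM in MS275, so that replicate 3 was far below the others in both groups. Its log2 change was 0.10 ± 0.23 (adjusted p = 0.98) and 0.10 ± 0.06 with the block (adjusted p = 0.26). ACSS2 was at 35.9, 41.7, 33.9 and 37.3 CPM in DMSO and 36.5, 52.5, 34.4 and 43.1 CPM in MS275, and the groups overlapped. With library sizes scaled by TMM, as in the edgeR fit, replicate 1 of ACSS2 was instead slightly lower in MS275 (35.2 CPM) than in DMSO (36.0 CPM). The log2 change of ACSS2 was 0.14 ± 0.17 (adjusted p = 0.95) and 0.13 ± 0.10 with the block (adjusted p = 0.43).

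The other members gave estimates nearer 0. Their approximate 95% intervals, from the SE and a normal distribution, reached at most 0.60 in either direction. Such intervals are somewhat narrower than the test itself would give. The log2 change was 0.07 ± 0.27 for ACADS, -0.10 ± 0.23 for ACOX3, -0.08 ± 0.22 for ECHS1, -0.04 ± 0.16 for HADH and -0.08 ± 0.22 for CDYL (adjusted p 0.98 to 0.99). ECHS1 ranged from 77.4 to 99.5 CPM in DMSO and from 69.1 to 102 CPM in MS275, and its highest library was replicate 3 in both groups. CDYL ranged from 34.2 to 56.5 CPM and from 25.4 to 56.7 CPM, and its lowest library was replicate 3 in both. Within each treatment ECHS1 and GCDH thus deviated with each other (r = 0.83 over 8 libraries after removal of the group means) and against CDYL (r = -0.95 and -0.85), HADH and ACLY. These correlations share the libraries numbered 3 and are a description.

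**Figure D2:**
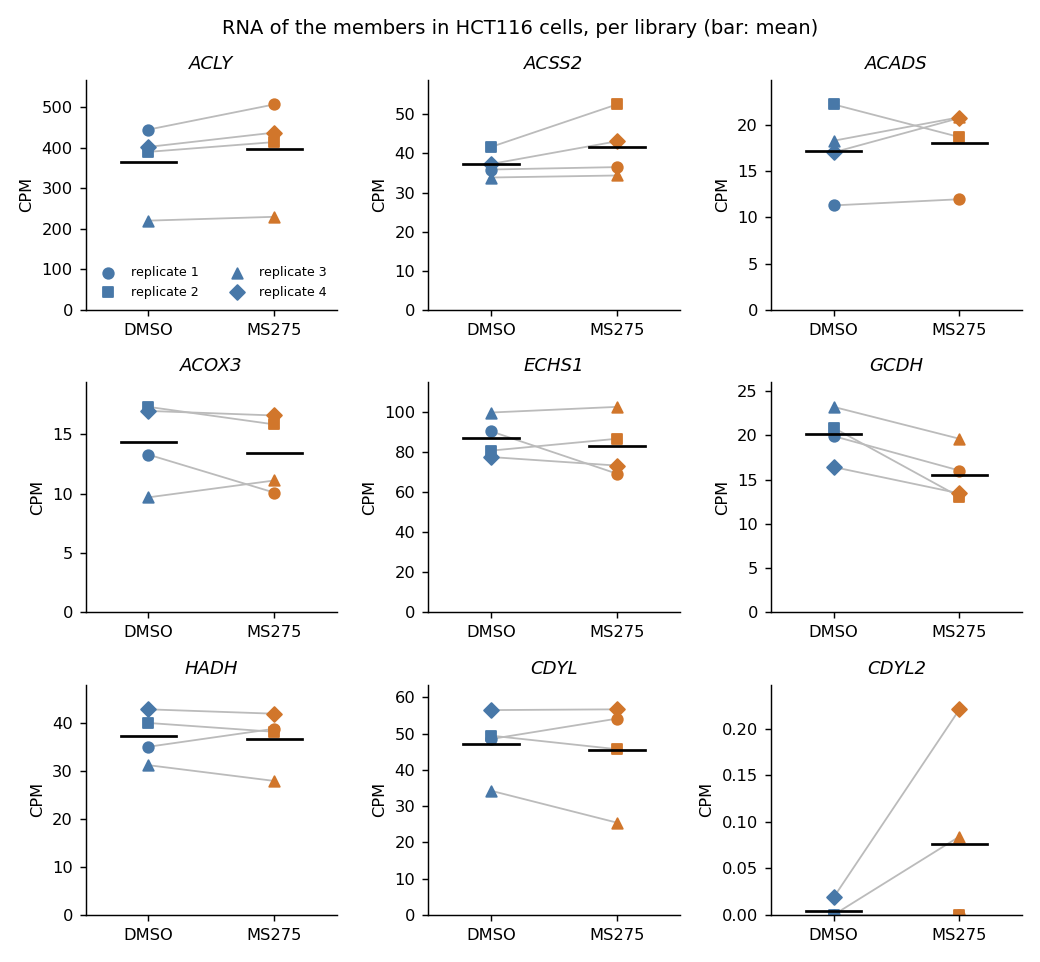
CPM of each member in the 8 HCT116 RNA libraries, with an axis from 0, grey lines joining libraries of the same number and bars at the mean. The groups overlap for all 9 members, GCDH goes down along all 4 lines, and replicate 3 is low for ACLY and CDYL and high for ECHS1 in both treatments. The share of all genes that overlap, or that go the same way along all 4 lines, is not given here.

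By the same measure, the gene most like each member among 14960 others was MID1IP1 for ACSS2 (r = 0.96), GSR for ACLY (1.00), GAS6-AS1 for ACADS (0.99), ACAD11 for ACOX3 (0.99), TBCA for ECHS1 (1.00), LEMD2 for GCDH (0.99), CTD-2192J16.20 for HADH (1.00) and ITPR3 for CDYL (1.00). With 8 libraries such values are common, since 1258 genes reached an r over 0.9 with GCDH and 958 with ECHS1, and 13 did so with ACSS2.

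Of 67 further genes of acyl-CoA and coenzyme A metabolism, listed by pathway, 63 were tested and 0 passed without the block, while 4 were higher and 7 lower in MS275 with the block. The 11 of 63 compare with 14.4% of all genes, and the median log2 change was -0.00 over the list against 0.01 over all genes. Among the genes that passed, the largest rises were ACSL4 and ACSL3, synthetases that activate long-chain fatty acids, and PANK3, a kinase that opens coenzyme A synthesis. ACSL4 was at 103, 88.6, 35.9 and 112 CPM in DMSO and 134, 165, 55.2 and 143 CPM in MS275, higher in each pair. It rose by 0.54 ± 0.10 on the log2 scale (edgeR with the block, adjusted p = 0.0037). ACSL3 rose by 0.48 ± 0.06 (adjusted p = 0.00065) and PANK3 by 0.46 ± 0.10 (adjusted p = 0.010). Among those that passed, the largest falls were PPCDC, which acts later in coenzyme A synthesis, ACAT2, the cytosolic thiolase, and PDHB, a subunit of pyruvate dehydrogenase. PPCDC had a log2 change of -0.60 ± 0.18 (adjusted p = 0.047), ACAT2 of -0.50 ± 0.09 (0.0050) and PDHB of -0.36 ± 0.10 (0.030), all edgeR with the block. Larger estimates that did not pass were 0.85 for ACOX2, 0.72 for AASS, 0.59 for ACSL1 and -0.45 for ACSL5. Without the block the adjusted p of these 6 genes was 0.58 to 0.91.

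The second comparison asked how MS275 changed the share of H3K18cr and H3K18ac reads over these genes. Each of the 8 members with a peak had a lower mean in MS275 at its TSS peak for both marks, and the fall passed the test at 7 members for H3K18cr and at 4 for H3K18ac. Values are log2 of reads scaled to the largest library, and limma was used across all peaks. Of the 16 member peaks, 10 were called lower for H3K18cr, against 23.4% of all peaks, and 7 for H3K18ac, against 16.6%, and none (0) was called higher. Over peaks at a TSS, 55.3% (H3K18cr) and 43.3% (H3K18ac) were lower in the whole table, beside 10 and 7 of the 11 member peaks at a TSS of any gene. Away from a TSS 8.11% and 3.78% were lower, beside 0 of 5 member peaks for each mark. The median log2 change of the 8 TSS peaks was -0.69 for H3K18cr and -0.68 for H3K18ac, and that of all TSS peaks -0.54 and -0.60. ChIP-seq counts give the proportion of reads at a site and not the amount of a mark per cell.

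The scale of the libraries bears on these counts. For H3K18cr the median of all peaks was -0.20 in limma and 0.04 when the recovered reads were scaled by TMM in edgeR, and lower peaks made up 99.0% and 83.2% of those called. The H3K18ac medians were -0.19 and 0.06, and its lower peaks 98.5% and 77.8% of those called. On that scale 5 of 16 member peaks were called lower for H3K18cr, against 11.5% of all peaks, and 6 for H3K18ac, against 16.8%, and 2 were called higher for H3K18ac, against 4.81%. Of the 8 TSS peaks of the members, 3 were called lower on that scale for H3K18cr and 4 for H3K18ac. The share of all TSS peaks on that scale is not given here. At the TSS peaks of the members the sign stayed negative for both marks except for H3K18ac at ACADS (0.15). DESeq2 on the recovered reads called 1 of the 9 member peaks to which it gave an adjusted p for H3K18cr and 4 of 12 for H3K18ac, all lower. Leaving out MS275 replicate 2 left 5 of 16 member peaks called for H3K18cr. For H3K18ac 3 were left without DMSO replicate 3, and 4 without MS275 replicate 2 or MS275 replicate 3. For DESeq2 and for the fits leaving out 1 library, no share of all peaks stands beside these counts, so they describe the members only.

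ECHS1, the hydratase that consumes crotonyl-CoA, had the largest fall of H3K18cr among the TSS peaks in scaled reads, a place it did not keep relative to input. Its single peak (chr10:133373251-133374000) covers the promoter shown above and the start of the first exon. H3K18cr was 5.75, 5.66 and 5.33 in DMSO replicates 1 to 3 and 4.26, 4.82 and 3.81 in MS275, with all MS275 libraries below all DMSO libraries. The change was -1.28 ± 0.27 (SE; limma adjusted p = 0.00072), and it was called in 6 of 6 fits that left out 1 library. H3K18ac was 4.88, 5.5 and 5.86 in DMSO and 4.38, 4.18 and 4.46 in MS275, again without overlap, with a change of -1.07 ± 0.28 (adjusted p = 0.0024). This H3K18ac call was lost without DMSO replicate 3 (adjusted p = 0.074). The peak is narrow and thinly read, with 10 to 54 reads per H3K18cr library and 6 (DMSO) and 3 (MS275) reads in the inputs. Relative to the input of its treatment, H3K18cr was at 2.61 ± 0.22 (SD, n = 3) in DMSO and 2.21 ± 0.51 in MS275 on the log2 scale, where the libraries overlapped. The difference of -0.40 was smaller than those of ACLY (-0.94), ACADS (-0.82), HADH (-0.55), CDYL (-0.54) and GCDH (-0.53), and for H3K18ac at ECHS1 it was -0.19. This order depends on reads added before the log. With 5 scaled reads added to ChIP and input, H3K18cr at ECHS1 was 2.20, 2.11 and 1.82 in DMSO and 1.38, 1.85 and 1.04 in MS275. Its fall was then larger than those of HADH, CDYL and GCDH, but not than those of ACLY and ACADS. The H3K18ac fall at ECHS1 was also larger with these reads added.

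ACOX3 carried peaks at both of its starts and both marks fell at each. At the upstream start (chr4:8439901-8441850), which also lies within 1 kb of a TSS of TRMT44, H3K18cr was 7.08, 7.03 and 7.04 in DMSO and 6.15, 6.03 and 6.72 in MS275. H3K18ac was 7.10, 7.5 and 8.05 in DMSO and 6.62, 6.48 and 6.15 in MS275. On this scale no MS275 library reached the DMSO range for either mark. Relative to input, H3K18cr in MS275 replicate 3 (1.57) lay above all DMSO libraries (1.52 to 1.56), and the difference of the means was -0.39. The changes were -0.75 ± 0.19 (adjusted p = 0.0036) and -1.13 ± 0.25 (adjusted p = 0.00041), and both were called in 6 of 6 fits that left out 1 library. At the second start (chr4:8427601-8429250) they were -0.88 ± 0.19 (adjusted p = 0.00086) and -1.03 ± 0.25 (adjusted p = 0.0011).

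ACLY had 3 peaks, at its RefSeq starts, at a start listed further upstream, and beyond its end. At the first of these (chr17:41917501-41920800), H3K18cr was 8.19, 8.12 and 7.87 in DMSO and 7.28, 7.59 and 7.35 in MS275. H3K18ac was 7.91, 7.73 and 8.80 in DMSO and 7.84, 7.08 and 7.22 in MS275, where MS275 replicate 1 lay within the DMSO range. The changes were -0.66 ± 0.17 (adjusted p = 0.0033) and -0.77 ± 0.25 (adjusted p = 0.021). The H3K18ac call was lost without DMSO replicate 3, MS275 replicate 2 or MS275 replicate 3 (adjusted p 0.21 to 0.30). The upstream peak (chr17:41929201-41931900), shared with ODAD4, changed by -0.81 ± 0.18 (adjusted p = 0.0010) and -0.92 ± 0.25 (adjusted p = 0.0038). The peak beyond the end (chr17:41863951-41865600) lies at a TSS of KLHL11 and changed by -0.54 ± 0.20 (adjusted p = 0.049) and -0.68 ± 0.25 (adjusted p = 0.041).

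GCDH, whose RNA estimate was also the lowest of the members, had lower values of both marks over its start (chr19:12891001-12892200). H3K18cr was 5.91, 5.40 and 5.76 in DMSO and 4.92, 4.5 and 5.07 in MS275, and H3K18ac was 5.73, 5.68 and 6.63 against 5.28, 4.81 and 5.28. The groups did not overlap for either mark. The changes were -0.86 ± 0.24 (adjusted p = 0.0080) and -0.89 ± 0.25 (adjusted p = 0.0051). Without MS275 replicate 2 neither was called, nor was H3K18cr without DMSO replicate 1 or H3K18ac without DMSO replicate 3.

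ACADS, which makes crotonyl-CoA from butyryl-CoA, fell for H3K18cr alone by these calls (chr12:120724951-120726600). H3K18cr was 6.36, 6.28 and 6.30 in DMSO and 5.81, 5.63 and 5.58 in MS275, with no overlap, a change of -0.64 ± 0.20 (adjusted p = 0.015). H3K18ac was 5.99, 5.88 and 6.51 in DMSO and 6.33, 5.97 and 5.82 in MS275, where the groups overlapped and the change was -0.09 ± 0.25 (adjusted p = 0.90). The difference between the marks in their change was -0.56 ± 0.31, with an approximate 95% interval, from the SE and a normal distribution, of -1.17 to 0.06. It did not pass (limma interaction, adjusted p = 1.00, unadjusted p = 0.082). The H3K18cr call was lost without DMSO replicate 1, DMSO replicate 2 or MS275 replicate 2 (adjusted p 0.051 to 0.062). Across all peaks the interaction was called at 0 of 40237 (0%), with 736 at an unadjusted p under 0.05, and no member peak was among those called.

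ACSS2, CDYL and HADH had lower values of both marks in MS275, and not all passed. At the wide TSS peak of ACSS2 (chr20:34871251-34877550, also near a TSS of GGT7), H3K18cr was 8.30, 8.34 and 8.40 in DMSO and 7.69, 7.66 and 8.15 in MS275, all below the DMSO libraries. It changed by -0.51 ± 0.16 (adjusted p = 0.020) and H3K18ac by -0.59 ± 0.25 (adjusted p = 0.092). The H3K18cr call was lost without DMSO replicate 2, MS275 replicate 1 or MS275 replicate 2 (adjusted p 0.073 to 0.14). At the marked start of CDYL (chr6:4774801-4778400), H3K18cr was 8.17, 8.04 and 7.75 in DMSO and 7.17, 6.98 and 7.65 in MS275, again without overlap. The changes were -0.72 ± 0.18 (adjusted p = 0.0029) and -0.56 ± 0.25 (adjusted p = 0.12), and the former was lost without MS275 replicate 2 (adjusted p = 0.051). HADH (chr4:107988601-107991600) had H3K18cr values of 7.11, 7.20 and 7.24 in DMSO and 6.56, 6.81 and 6.88 in MS275. Its groups did not overlap, but the change of -0.44 ± 0.17 missed the threshold (adjusted p = 0.068), as did that of H3K18ac (-0.59 ± 0.25, adjusted p = 0.094). With a mean of at least 50 reads required of a peak, H3K18cr at HADH (adjusted p = 0.038) and H3K18ac at ACSS2 (adjusted p = 0.0497) passed.

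**Figure D3:**
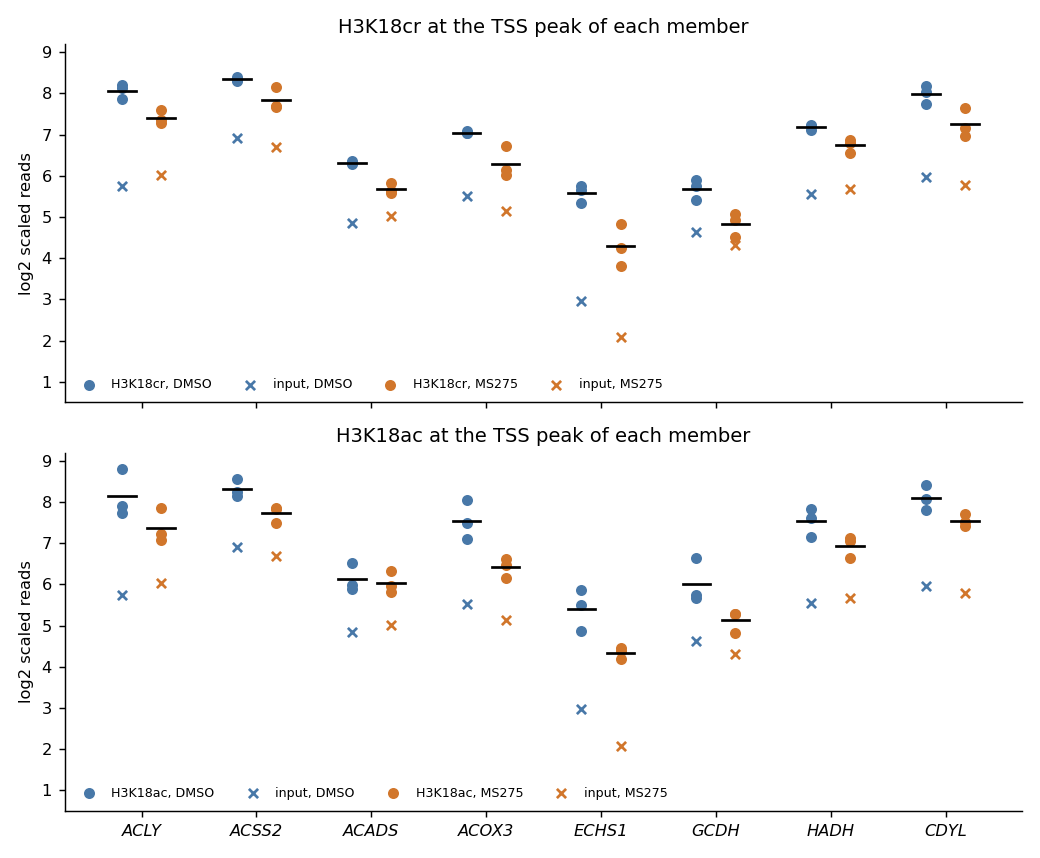
Deposited log2 scaled reads at the TSS peak of 8 members for H3K18cr (top) and H3K18ac (bottom), with points for the 3 libraries of each treatment, bars at the mean and crosses for the single input of each treatment. The MS275 libraries lie below the DMSO libraries without overlap at all 8 members for H3K18cr and at 6 of 8 for H3K18ac, the exceptions being ACLY and ACADS, beside 62% and 50% of all TSS peaks.

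The 5 member peaks inside ACSS2 and CDYL and away from any TSS had no calls in limma for either mark. For H3K18cr their changes ran from -0.21 (ACSS2, over an exon, chr20:34907101-34909650) to 0.38 (CDYL, over an exon, chr6:4732501-4733250), and none (0) passed. At the latter peak H3K18ac was 3.88, 4.18 and 3.53 in DMSO and 4.84, 4.53 and 4.65 in MS275, higher without overlap, with a change of 0.81 ± 0.34 (adjusted p = 0.080) on 9 to 24 reads. Relative to input the groups overlapped there and the difference of the means was 0.40. With TMM on recovered reads that change was 1.05 ± 0.33 (edgeR adjusted p = 0.016), and an intronic peak of ACSS2 (chr20:34889701-34893450) rose by 0.46 ± 0.16 (adjusted p = 0.034). Relative to input, an intronic peak of ACSS2 (chr20:34879501-34880700) was lower in MS275 without overlap for both marks, by -1.46 for H3K18cr and -1.37 for H3K18ac, with 9 input reads in DMSO and 21 in MS275. On that scale 1 of the 5 peaks was thus lower without overlap for H3K18cr, beside 24.6% of all peaks away from a TSS, and 2 of 5 for H3K18ac, beside 21.1%. The intronic peak of ACSS2 at chr20:34889701-34893450 was higher without overlap for both marks on that scale, by 0.27 for H3K18cr and 0.44 for H3K18ac. The difference between these peaks and those at TSS was not tested.

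**Figure D4:**
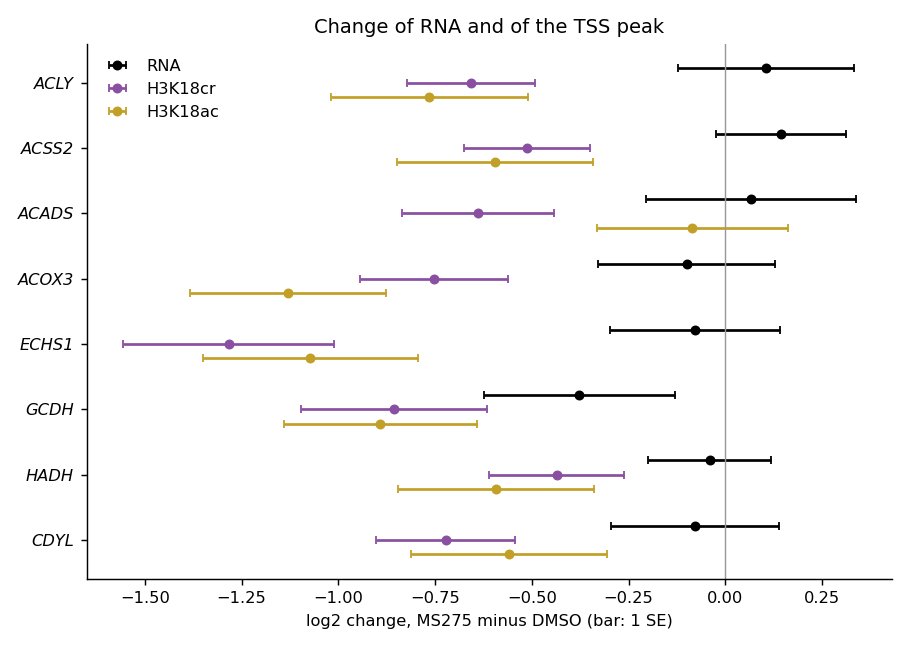
Log2 change from DMSO to MS275 of RNA (edgeR), H3K18cr and H3K18ac (limma) for each member, with bars of 1 SE and marks read at the TSS peak. The estimates for both marks are below 0 at all 8 members, with H3K18ac at ACADS near 0, and the RNA estimates lie between -0.38 and 0.14.

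Against input, the TSS peaks of the members in DMSO were enriched by 1.06 (GCDH) to 2.61 (ECHS1) for H3K18cr and by 1.28 (ACADS) to 2.44 (ECHS1) for H3K18ac on the log2 scale. In MS275 these ranges were 0.52 (GCDH) to 2.21 (ECHS1) and 0.82 (GCDH) to 2.25 (ECHS1). Relative to input the MS275 libraries lay below the DMSO libraries without overlap at 4 of 8 members for H3K18cr (ACADS, ACLY, GCDH and HADH) and at 5 of 8 for H3K18ac (ACLY, ACOX3, ACSS2, GCDH and HADH), beside 53.8% and 44.5% of all TSS peaks. These ratios add no reads before the log, and the place of ECHS1 depends on that. With 5 scaled reads added to ChIP and input, ACLY was highest in DMSO for both marks. In MS275, CDYL was then highest for H3K18ac, and ECHS1 stayed highest for H3K18cr. A single input per treatment gives these ratios no error of their own.

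In colon epithelium, H3K4me3 marked the start of all 9 members and H3K18cr that of 8, with Gcdh as the exception. The share of all genes with such peaks is not given here, so these counts describe the members only. The log2 of ChIP over input for H3K18cr was between 1.19 ± 0.36 (Echs1; SD, n = 2) and 1.98 ± 0.46 (Cdyl), beside a median of 1.5 over 11430 TSS peaks. Cdyl stood at the 89.4 percentile of these peaks, Hadh (1.49 ± 0.46) at 48.2 and Cdyl2 (1.48 ± 0.39) at 47.8. The remaining members lay between 18.2 (Echs1) and 30.4 (Acox3). These places depend on the measure. By scaled ChIP reads per kb, without input, Acads stood at the 73.3 percentile of TSS peaks and Acox3 at 68.9. Acly (12.7), Acss2 (25.4) and Echs1 (32.1) stayed low, and Cdyl (96) stayed highest. The members with the least RNA in colon were thus not those with the least H3K18cr.

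H3K4me3 gave a wider span. Cdyl2 was at 3.43 ± 0.70 (SD, n = 3), Cdyl at 3.27 ± 0.65 and Acly at 2.98 ± 0.74, and Gcdh (1.95 ± 0.63) and Acox3 (1.55 ± 0.20) were lowest, beside a median of 2.38 over 14453 TSS peaks. Cdyl2 stood at the 95.6 percentile of these peaks, although its RNA stood at the 27.0 percentile of genes in the same tissue. In HCT116 cells CDYL2 had no peak in or near it and 1 RNA count in 4 DMSO libraries. H3K4me3 replicate 1 was the lowest of the 3 libraries at all 9 members, and every ratio used the same input, so the SD holds no error of the input.

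Where both marks had a TSS peak in colon, the peaks shared 50% (Hadh) to 100% (Acox3, Cdyl and Cdyl2) of the H3K18cr peak. At Cdyl they were the same interval (chr13:35740201-35742600), at the internal start, as in HCT116 cells. At Hadh the H3K18cr peak (chr3:131270251-131273550) was 3300 bases wide and held the whole H3K4me3 peak of 1650 bases, and 3 further H3K18cr peaks lay in or beside the gene. Their ChIP over input was 0.65 to 1.65 over the libraries. An H3K18cr peak also lay in an intron of Cdyl2 (chr8:116628151-116630550), at 0.77 and 1.37 in the 2 libraries. Acox3 had the most H3K4me3 peaks of the members, 5 in all, and the 4 inside the gene gave 0.56 to 1.85 over the libraries, beside 1.37 to 1.76 at its start.

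**Figure D5:**
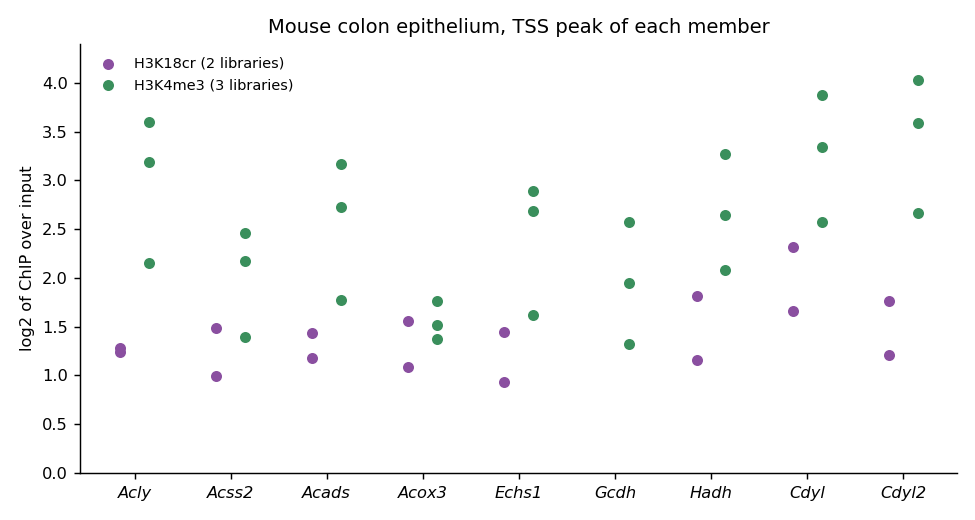
Log2 of ChIP over input at the TSS peak of each member in mouse colon epithelium, with 1 point per library for H3K18cr (2 libraries) and H3K4me3 (3 libraries). Cdyl and Cdyl2 have the highest mean H3K4me3, Cdyl the highest mean H3K18cr, and Gcdh has no H3K18cr point because no peak was listed there.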

How the data were processed

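The data comprise 33 libraries in 5 tables, grouped by the labels. The authors trimmed reads with Trim Galore, mapped RNA reads with HiSat2 (stated for mouse) and used Bowtie2 for ChIP reads (builds GRCm38 and GRCh38, duplicates dropped), and counted in SEQMONK with its MACS peak finder. The RNA tables hold raw counts per gene as the authors deposited them. The colon ChIP tables hold, as deposited, a signal per peak, which is reads times 1 factor per library so that all match the largest. For HCT116 ChIP the table holds the log2 of such values, as deposited by the authors, with 0.9 read in place of 0. Each table has 1 peak list for all its libraries. Whole reads were recovered for 100% of values, within 0.02 read or, where more, 0.001% of the value. Methods name 2 replicates for HCT116 H3K18cr, and 3 per treatment were labelled and used.

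RNA was tested with edgeR 4.0.16 (quasi-likelihood, TMM, filterByExpr) and HCT116 peaks with limma 3.58.1 on the log2 values (at least 10 reads in 3 libraries) in R 4.3.3, with Benjamini-Hochberg adjustment over all features and a threshold of 0.05. DESeq2 1.42.0 was an alternative. The edgeR and limma tests were tested on simulated data: of 200 genes changed by 1 on the log2 scale edgeR recovered 193 among 14881, and of 200 peaks limma recovered 130 among 39399. False calls were 7 and 4. The simulated counts had the same fixed dispersion for all features and no deviations shared within a library. These shares therefore do not give the power of the tests in the real libraries. Tables and plots used Python 3.11.15, pandas 2.3.3 and matplotlib 3.10.9. TSS are those of protein-coding transcripts in GENCODE 44 and M21, and a TSS peak lies within 1 kb of one, the highest mean being taken where there were several. Colon ChIP over input is the log2 of scaled reads + 1, each H3K18cr library with the input of its number.

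The genes and lists were chosen with earlier results of these data known. All members are named, with their TSS peaks, at most 3 other peaks per mark by adjusted p, the 3 largest rises and falls among the genes of the pathway list that passed in the fit with the block, and for each member the most similar gene by Pearson r. Other peaks inside ACSS2, CDYL, Hadh, Cdyl2 and Acox3 were chosen after their values were seen. Neither labels nor methods say whether a replicate number marks a shared culture. After subtraction of the group mean, RNA libraries with the same number correlated at 0.23, 0.15, 0.43 and 0.46, all above 0.1, so numbers were treated as pairs, although DMSO 2 with MS275 4 (0.24) and DMSO 4 with MS275 2 (0.22) exceeded the 0.15 of pair 2. In ChIP they correlated at 0.11, 0.08 and 0.24 (H3K18cr) and -0.21, 0.05 and -0.14 (H3K18ac), so they were not. The limits given for a count of 0 cover counting error only, while the intervals of log2 changes, like the p-values, measure the spread between these libraries.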

Additional observations from a re-analysis of the deposited data

Results flagged for a closer look

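Of 18 groups of 4 RNA libraries (9 members in 2 treatments), 1 held a library that stood far from the other 3. This was CDYL2 in DMSO, where replicate 4 had 1 count and the others 0, so that the gap was the whole range (ratio 1). A ratio of 1 follows whenever exactly 1 of 4 libraries has a read, so the rate of about 1 in 20 groups that chance gives for continuous values does not apply to it. No difference between the marks in the change with MS275 passed at a member peak.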

How the results depend on the processing

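All fits gave 0 members called in RNA. The genes called in RNA were 1 in the edgeR fit, 140 with DESeq2, 13 without the filter, 2151 with the replicate block, 0 to 1 over the fits that left out 1 library (0 without DMSO replicate 1, DMSO replicate 2 or MS275 replicate 2) and, chosen after the data were seen, 8 without both libraries numbered 3 and 2584 without them and with the block. ACADS RNA turned to -0.0023 without both libraries numbered 3. Over the fits leaving out 1 library, the RNA log2 change ranged from -0.039 to 0.26 for ACLY, -0.090 to 0.23 for ACADS, -0.21 to 0.023 for ACOX3, -0.28 to 0.058 for ECHS1, -0.085 to 0.019 for HADH and -0.18 to 0.081 for CDYL, while ACSS2 (0.02 to 0.21) and GCDH (-0.59 to -0.23) kept their sign. Peaks called for H3K18cr were 9321, with 5936 to 12615 over the fits leaving out 1 library, 3471 with DESeq2 and 5468 with edgeR and TMM; member peaks called were 10, with 5 to 11 (5 without MS275 replicate 2), 1 and 5. For H3K18ac they were 6652, with 1438 to 9324 (3054 without DMSO replicate 2, 3781 without DMSO replicate 3, 1438 without MS275 replicate 2 and 1870 without MS275 replicate 3) and 895 with the replicate block; member peaks were 7, with 3 to 10, 4 with DESeq2 and 3 with the block. The numbers do not pair the ChIP libraries, and the block left 11 H3K18cr member peaks called, HADH among them (adjusted p = 0.046), and ended the H3K18ac calls at the TSS peaks of ACLY (0.22) and GCDH (0.058). H3K18ac at the TSS peak of ACADS turned to 0.15 with DESeq2 and 0.15 with edgeR, and ranged from -0.23 to 0.11 over the fits leaving out 1 library. By the length of the longest transcript 5 of 9 members kept their place in the order of levels in DMSO and 5 in MS275. The cause of these shifts was not tested. Peaks of few reads, such as that of ECHS1, limit the precision.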
